A study of Mus musculus with 13 samples.

Results

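The hypoxia response and glycolysis genes described here are 35 genes of mouse: 14 enzymes of glycolysis and 21 genes of glucose transport, oxygen sensing, mitochondria, vessels, pH and matrix. They were found on the array by gene name or synonym, with control spots left out. Of the 35, 34 had a probe and were tested, among 17642 genes in all, and all 34 were well above background on all 14 arrays. Kdm3a was listed under its older symbol Jmjd1a. Gapdh was the member without a probe of its own name.

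The arrays measured RNA of mammary organoids, which are multicellular epithelial fragments freed by collagenase and trypsin. Normal organoids came from the glands of FVB mice, of an age the sources used here do not state. Tumor organoids came from the largest tumor of MMTV-PyMT mice aged 12 to 16 weeks, in which a mammary tumor virus promoter drives the polyoma middle T oncogene in mammary epithelium. Both kinds were embedded in 1 of 2 gels, Matrigel (basement membrane proteins) or collagen I (from rat tail, 3 mg/ml), and all were collected on day 4 in medium with 2.5 nM FGF2. The 4 groups hold 3 mice each. Normal mice A, B and D gave the Matrigel group and normal mice A, B and C the collagen I group, while tumor mice A, B and C gave both of theirs. A letter shared within a tissue is 1 mouse; normal and tumor mice are different animals. A further pair of arrays from an earlier batch repeats normal Matrigel A and B; the labels give mouse B as the same RNA on both batches and do not state it for mouse A.

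HIF, the hypoxia-inducible factor, is made of an oxygen-regulated alpha subunit (Hif1a and relatives) and a constant partner. In oxygen, prolyl hydroxylases such as Egln1 and Egln3 mark the alpha subunit for destruction through VHL; in low oxygen it persists and binds short DNA elements with the core RCGTG. Its targets raise glucose uptake and glycolysis, hold pyruvate back from mitochondria, and act on vessels, acid export and collagen maturation. HIF is regulated mainly at the protein level, which arrays do not read, and many glycolytic genes also respond to other growth-related factors.

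Promoters of 5 members are shown, picked only among members with a copy of the HIF core element in the window searched. They are the 2 glycolytic enzymes and the 3 other members with the largest change between the gels in tumor organoids. Eno2 (-2.26) and Gpi1 (-1.65) changed more than the 2 enzymes shown but had no copy. Ndrg1 (-1.83) had no promoter entry. Shown are a hexokinase, an ATP-making enzyme of glycolysis, the gene with the largest change between tissues, a collagen-modifying enzyme and a brake on growth signalling. Each is the 250 bases before the start in RefSeq's GRCm38.p6, read 5′ to 3′ on the gene's strand. Capitals mark ACGTG or GCGTG on either strand, so CACGT and CACGC are matches on the other strand. Hk2 lies at chr6:82774455-82774704 (minus strand), Pgk1 at chrX:106186850-106187099 (plus), Adm at chr7:110627407-110627656 (plus), P4ha2 at chr11:54100674-54100923 (plus) and Ddit4 at chr10:59951771-59952020 (minus).
Hk2: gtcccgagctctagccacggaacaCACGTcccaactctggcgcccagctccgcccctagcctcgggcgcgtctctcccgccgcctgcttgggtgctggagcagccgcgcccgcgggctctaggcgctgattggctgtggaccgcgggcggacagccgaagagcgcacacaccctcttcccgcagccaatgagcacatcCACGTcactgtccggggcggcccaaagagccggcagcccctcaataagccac
Pgk1: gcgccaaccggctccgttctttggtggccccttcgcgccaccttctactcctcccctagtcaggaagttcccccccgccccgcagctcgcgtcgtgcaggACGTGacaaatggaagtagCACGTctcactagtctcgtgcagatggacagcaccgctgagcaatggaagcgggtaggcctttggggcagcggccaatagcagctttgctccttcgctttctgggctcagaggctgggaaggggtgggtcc
Adm: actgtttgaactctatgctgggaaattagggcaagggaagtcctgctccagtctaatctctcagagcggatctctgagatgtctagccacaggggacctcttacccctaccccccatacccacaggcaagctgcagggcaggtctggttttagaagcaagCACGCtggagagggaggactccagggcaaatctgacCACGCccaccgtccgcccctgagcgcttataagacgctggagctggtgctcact
P4ha2: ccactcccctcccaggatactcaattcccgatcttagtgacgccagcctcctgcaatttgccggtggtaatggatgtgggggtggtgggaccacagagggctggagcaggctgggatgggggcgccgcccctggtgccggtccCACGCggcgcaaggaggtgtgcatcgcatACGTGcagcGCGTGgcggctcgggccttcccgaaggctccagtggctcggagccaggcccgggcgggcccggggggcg
Ddit4: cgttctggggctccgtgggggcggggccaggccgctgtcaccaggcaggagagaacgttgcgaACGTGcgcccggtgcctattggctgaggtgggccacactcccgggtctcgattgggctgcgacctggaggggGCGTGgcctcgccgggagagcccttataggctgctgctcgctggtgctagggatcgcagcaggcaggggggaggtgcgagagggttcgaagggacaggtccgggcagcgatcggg
Of the 35 members, 33 had a RefSeq promoter entry, and 29 of these 33 (87.9%) held ACGTG or GCGTG in at least 1 listed promoter, against 41.5% of 27025 genes. By promoter the share was 77.8% of 45 member promoters and 38.6% of 32851 promoters of the same length. The match was found in 11 of 14 glycolytic enzymes and 18 of 19 other members. Member promoters were richer in G and C, with a median of 62.8% against 52.4%, and the part of that in the shares was not tested. Eno2, Gpi1, Tpi1 and Car12 had no match in this window. A match is a string of letters in a window, not a measured binding site.

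Levels below are log2 units of the processed signal relative to each array's 75th percentile, and differences are log2 differences, followed by ± limma's standard error. "Rose", "fell", "higher" and "lower" as calls mean an adjusted p under 0.05 by limma, with Benjamini-Hochberg adjustment over all 17642 genes. With 3 arrays against 3, no exact permutation test can go below p = 0.10. Brightness differed between arrays: the 75th percentile ran from 383 to 570 in tumor Matrigel, 691 to 812 in tumor collagen I, 671 to 1098 in normal Matrigel and 971 to 1216 in normal collagen I. Spike-in control probes stood at -0.32 to 0.36 relative to it in tumor Matrigel and at -2.28 to -1.47 on the other arrays of the same batch. Scaling to the spike-in probes would shift every gel difference by 1.69 in tumor and 0.21 in normal organoids, and every tissue difference by -1.94 in Matrigel and -0.46 in collagen I. On normal Matrigel B, whose RNA is labelled the same on both batches, the spike-in probes stood at 1.16 in batch 1 and -2.02 in batch 2. Directions therefore hold relative to the bulk of genes on each array.

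Cell type markers also moved with the groups. All 7 fibroblast markers were lower in tumor than in normal organoids in Matrigel (median -2.98), and 5 in collagen I. The log2 of their summed level ran from 4.24 to 6.97 in normal Matrigel, 4.90 to 6.17 in normal collagen I, 1.98 to 2.39 in tumor Matrigel and 2.42 to 3.35 in tumor collagen I. Of 6 endothelial markers 5 were lower in tumor organoids in both gels, with sums of 1.72 to 3.08 on normal arrays and -3.35 to -0.94 on tumor arrays. Of 6 luminal markers 3 were higher in tumor organoids in Matrigel, with sums of 10.05 to 10.61 there and 9.20 to 9.76 in the other groups. The 6 basal epithelial markers had sums of 6.96 to 9.27 over all groups. Of these, Myh11 and Cnn1, which are contractile genes, were lower in tumor organoids. Their log2 differences were -7.05 and -5.48 in Matrigel and -5.8 and -4.84 in collagen I. Trp63 was higher in both gels, while Acta2, also a contractile gene, Krt5 and Krt14 were not called in either gel. Of 8 leukocyte markers 7 were tested; none was called between the gels in normal organoids, where their median was 1.61 and 6 of 7 were higher at an unadjusted p under 0.05. Their sums ran from 5.19 to 5.82 in normal Matrigel, 6.52 to 6.71 in normal collagen I, 5.47 to 6.07 in tumor Matrigel and 4.98 to 6.10 in tumor collagen I. Both adipocyte markers tested, of 5 listed, were lower in tumor organoids in Matrigel, with sums of 3.30 to 5.62 on normal and -0.80 to 0.57 on tumor arrays. The part of cell makeup in the results below was not tested, and in such bulk samples fewer cells of a type and less RNA per cell cannot be told apart.

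**Figure D1:**
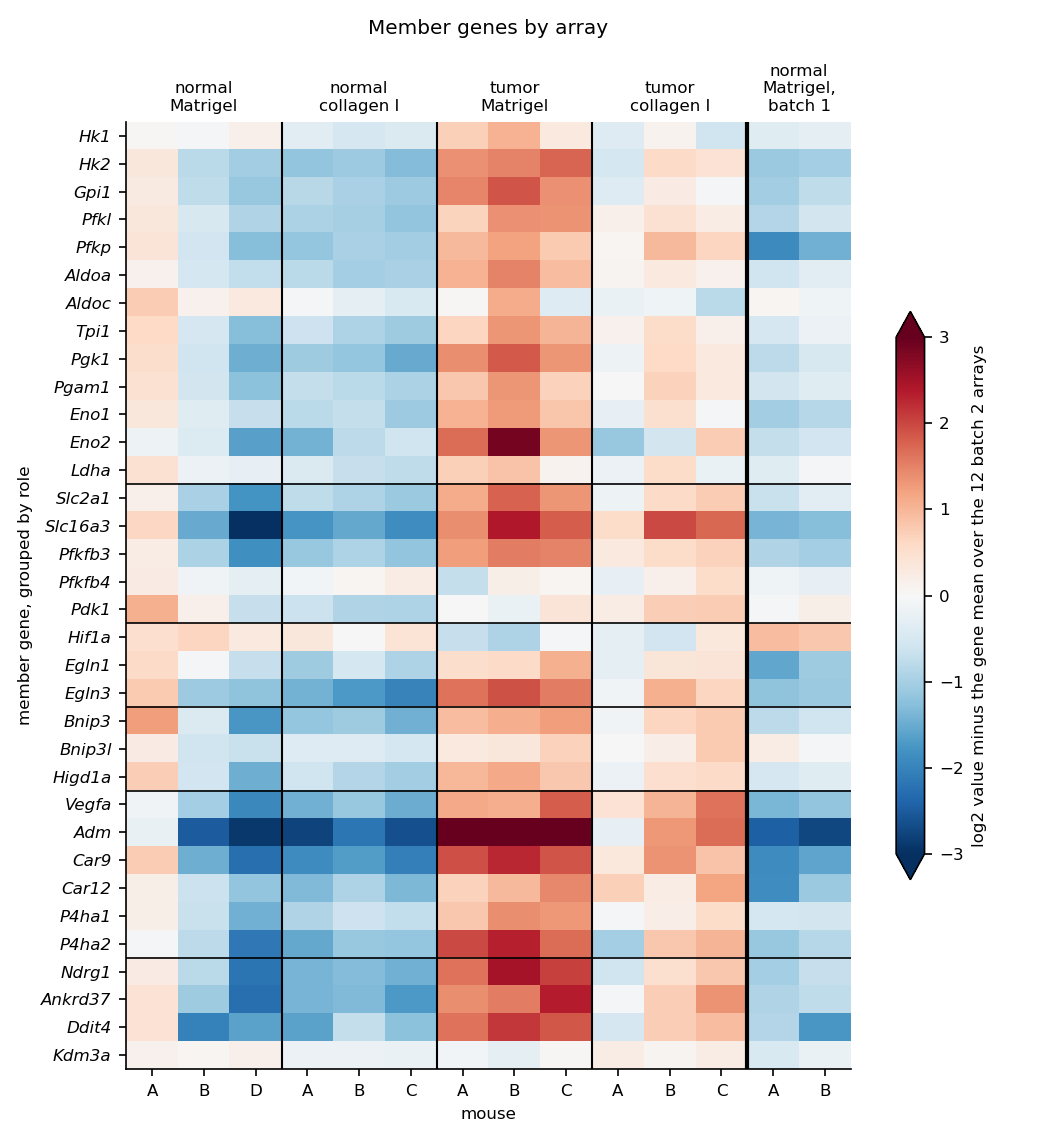
Level of each of the 34 members (rows, grouped by role) on each of the 12 arrays and the pair of batch 1 arrays (columns), as log2 difference from the member's mean over the 12 arrays of batch 2. Most members are high in tumor Matrigel and low in normal collagen I, and normal Matrigel A stands above B and D; scaling to spike-in probes would lower the tumor Matrigel columns.

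Between the tissues in Matrigel, most members were higher in tumor organoids. Of the 34 members 26 rose and 1, Hif1a, fell, against 51.5% of all genes called in either direction with 26.2% called higher and 25.4% lower. The median difference of the members was 1.56, from -1.03 to 5.37, beside 0.10 over all genes. The groups did not overlap, with tumor above normal, for 26 members, against 30.0% of all genes. Under spike-in scaling, which shifts every gene alike, the members' median was -0.39 beside -1.85 for all genes, with 1 member called higher and 9 lower.

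Among the 13 glycolytic enzymes tested, 11 rose in tumor organoids in Matrigel and none fell, with a median of 1.47. Hexokinases phosphorylate glucose on entry. Hk2, the inducible form, stood at 2.90, 1.76 and 1.51 in normal Matrigel (mice A, B and D) and at 3.94, 4.05 and 4.30 in tumor Matrigel (A, B and C). The groups did not overlap, and Hk2 rose by 2.04 ± 0.37 (limma adjusted p = 0.00128). Hk1, the widely expressed form, rose by 0.64 ± 0.23 (limma adjusted p = 0.0366). Hk1 was at -0.08 with quantile normalization and -0.01 in the authors' values, and lost its call without any 1 of 8 arrays (limma adjusted p = 0.0515 to 0.135).

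Gpi1, which turns glucose 6-phosphate into fructose 6-phosphate, stood at 6.91, 5.89 and 5.52 in normal Matrigel and at 8.12, 8.55 and 8.03 in tumor Matrigel. It rose by 2.12 ± 0.32 (limma adjusted p = 0.000556), with no overlap. Both phosphofructokinase genes, which carry the committed step, rose alike, Pfkl by 1.47 ± 0.30 and Pfkp by 1.48 ± 0.37 (limma adjusted p = 0.00245 and 0.00738). Aldolase A (Aldoa) rose by 1.53 ± 0.24, while its paralog Aldoc was at -0.14 (limma adjusted p = 0.000619 and 0.76). The triose phosphate isomerase Tpi1 and the phosphoglycerate mutase Pgam1 rose by 1.39 each (limma adjusted p = 0.0133 and 0.00964), but neither passed with quantile normalization or in the authors' values (limma adjusted p = 0.192 to 0.401). Tpi1 also missed the threshold without tumor Matrigel B (limma adjusted p = 0.0532).

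Pgk1, which makes ATP from bisphosphoglycerate, stood at 7.58, 6.44 and 5.57 in normal Matrigel and at 8.44, 8.90 and 8.36 in tumor Matrigel. All 3 tumor arrays lay above all 3 normal ones, and the difference was 2.04 ± 0.42 (limma adjusted p = 0.00264). The enolases Eno1 and Eno2 rose by 1.29 ± 0.28 and 2.69 ± 0.56 (limma adjusted p = 0.00366 and 0.00286). Lactate dehydrogenase A (Ldha), which regenerates NAD by making lactate, stood at 7.74, 7.12 and 7.04 in normal Matrigel and at 8.01, 8.14 and 7.41 in tumor Matrigel. These ranges overlapped, and Ldha did not pass, at 0.55 (limma adjusted p = 0.124). By the probe used for each gene, Aldoc and Ldha were thus the enzymes without a call here. The other Ldha probe was at 0.83 and passed as higher when each probe was tested alone.

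Of the 5 genes of transport and flux control, 3 rose in tumor Matrigel. Slc16a3, the lactate exporter MCT4, stood at 4.73, 2.61 and 0.31 in normal Matrigel and at 5.51, 6.51 and 5.93 in tumor Matrigel. It rose by 3.43 ± 0.85 (limma adjusted p = 0.00702). The spread of its normal Matrigel arrays, over 4 log2 units, was the widest of any member in any group. Slc2a1, the glucose transporter GLUT1, rose by 2.26, and Pfkfb3, which makes an activator of phosphofructokinase, by 2.28 (limma adjusted p = 0.00167 and 0.00113). Its paralog Pfkfb4 and Pdk1, the kinase that shuts pyruvate dehydrogenase, were at -0.11 each (limma adjusted p = 0.756 and 0.815).

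The oxygen-sensing genes did not move one way. Hif1a stood at 1.54, 1.68 and 1.33 in normal Matrigel and at 0.35, 0.12 and 1.00 in tumor Matrigel. It fell by 1.03 on the log2 scale, with no overlap (limma adjusted p = 0.0105). The hydroxylase Egln3, itself a HIF target, rose by 2.20 ± 0.48, and its paralog Egln1 was at 0.78 (limma adjusted p = 0.00347 and 0.0622). With slide as a fixed block Hif1a had no call (limma adjusted p = 0.177).

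Of the HIF targets of vessels, pH and matrix 6 of 6 rose, with a median of 2.68. Adm, the vasodilator peptide adrenomedullin, stood at -0.09, -2.36 and -2.75 in normal Matrigel and at 3.16, 4.16 and 3.59 in tumor Matrigel. The difference was 5.37 ± 0.67 (limma adjusted p = 0.000202), the largest of the members. Car9, a membrane carbonic anhydrase that handles acid outside the cell, stood at 0.69, -1.55 and -2.34 in normal Matrigel against 1.85, 2.17 and 1.80 in tumor Matrigel. It rose by 3.01 ± 0.60 (limma adjusted p = 0.00232), and the related Car12 by 1.59 (limma adjusted p = 0.00402). Vegfa, the vessel growth factor, rose by 2.37 ± 0.43, and the collagen prolyl hydroxylases P4ha1 and P4ha2 by 1.81 and 2.98 (limma adjusted p = 0.00143, 0.00193 and 0.00193).

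Of the mitochondrial genes, the mitophagy receptor Bnip3l and Higd1a, a regulator of the respiratory chain, rose by 0.78 and 1.41 (limma adjusted p = 0.0362 and 0.0227). Both had no call with quantile normalization, normexp or the authors' values, and Bnip3l lost it without any 1 of 7 arrays and Higd1a without any 1 of 4. Bnip3, the other receptor, was at 1.41 and did not pass (limma adjusted p = 0.063); it ran from 1.04 to 4.05 in normal Matrigel. The stress-responsive gene Ndrg1 rose by 2.98, the HIF target Ankrd37 by 2.72 and Ddit4, an inhibitor of mTORC1 signalling, by 2.94 (limma adjusted p = 0.00139, 0.00343 and 0.00214). Kdm3a, a histone demethylase, was at -0.22 (limma adjusted p = 0.217).

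Set side by side, the 13 glycolytic enzymes had a median of 1.47 between the tissues in Matrigel, and the 20 other HIF targets, Hif1a left aside, 2.23, with 15 of 20 called higher. Within the pairs of related genes, the tissue difference of Hk1 minus that of Hk2 was -1.40, and the same quantity was -1.40 for Eno1 and Eno2, -1.42 for Egln1 and Egln3 and -1.17 for P4ha1 and P4ha2. It was 1.67 for Aldoa and Aldoc, 2.39 for Pfkfb3 and Pfkfb4, 1.42 for Car9 and Car12, 0.63 for Bnip3 and Bnip3l and -0.01 for Pfkl and Pfkp. These differences within pairs were not tested. Per array, with each gene centred on its mean over the 12 arrays, the median of the enzymes was 0.98, 1.32 and 0.92 in tumor Matrigel A, B and C, and that of the other targets 1.12, 1.46 and 1.46. In normal Matrigel A, B and D the enzymes were at 0.35, -0.51 and -1.05 and the other targets at 0.25, -0.80 and -1.68. In normal Matrigel both sets had A highest and D lowest, while in tumor Matrigel the lowest array was C for the enzymes and A for the other targets.

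**Figure D2:**
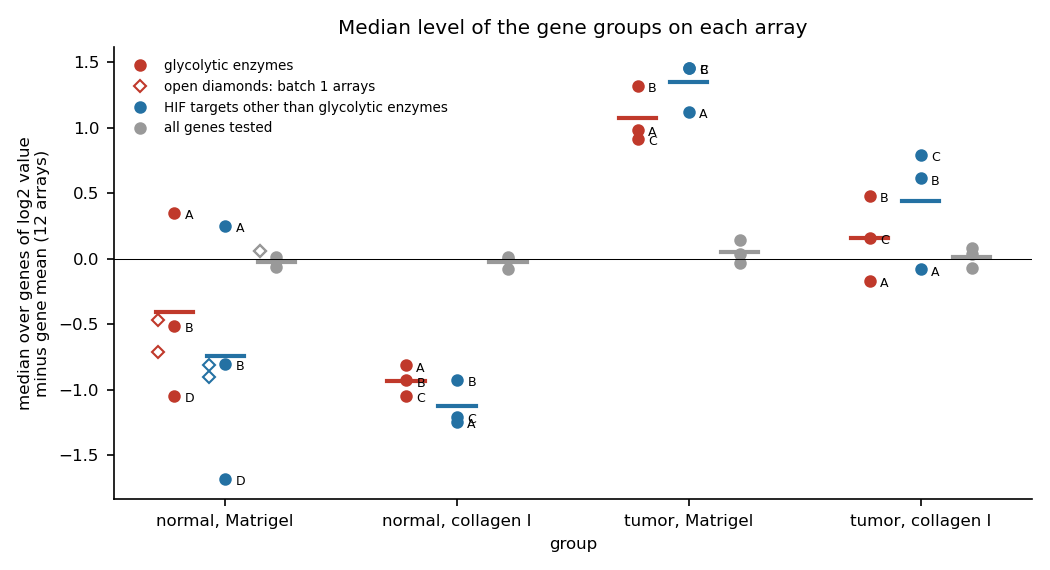
Median over the glycolytic enzymes, over the other HIF targets and over all genes, of log2 level centred on each gene's mean over the 12 arrays, for each array in its group (x axis); points are arrays lettered by mouse, bars the group means, and open diamonds the batch 1 arrays of normal Matrigel A and B. Tumor Matrigel has the highest and normal collagen I the lowest group mean in both sets, normal Matrigel A lies above B and D, and scaling to spike-in probes would lower the tumor Matrigel points by 1.69 relative to tumor collagen I.

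Between the tissues in collagen I, the same direction held with fewer calls. Of the 34 members 13 rose in tumor organoids and none fell, against 8.89% of all genes called and 3.79% called higher. The median was 1.32 beside 0.05 over all genes; 32 of 34 were above 0, and 29 had no overlap with tumor above normal, against 18.4% of all genes. Among the enzymes 4 of 13 rose, with a median of 1.1, and among the other HIF targets 9 of 20, with a median of 1.58. Under spike-in scaling 6 members were called, all higher.

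The enzymes called in collagen I were Hk2 at 1.37 ± 0.37, Pfkl at 1.33 ± 0.30, Pfkp at 1.62 ± 0.37 and Aldoa at 1.1 ± 0.24 (limma adjusted p = 0.042, 0.0198, 0.0212 and 0.0163). Aldoa stood at 8.08, 7.86 and 7.92 in normal collagen I (mice A, B and C) and at 8.97, 9.17 and 9.01 in tumor collagen I, with a gap between the groups wider than either range. Pgk1 stood at 5.97, 5.89 and 5.54 against 6.89, 7.64 and 7.34, also without overlap, and just missed the threshold, at 1.49 (limma adjusted p = 0.0517). Gpi1 was at 0.89 and Eno2 at 0.63 (limma adjusted p = 0.12 and 0.553).

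Adm stood at -2.64, -2.04 and -2.51 in normal collagen I and at -0.11, 1.45 and 1.83 in tumor collagen I. It rose by 3.45 ± 0.67 (limma adjusted p = 0.00904), and tumor mouse A was the low array of its group. Car9 stood at -1.96, -1.75 and -2.14 against 0.23, 1.27 and 0.77 and rose by 2.70 ± 0.60 (limma adjusted p = 0.0191). Vegfa rose by 2.38 ± 0.43, Car12 by 1.90, Egln3 by 2.25 ± 0.48, Slc16a3 by 3.14 ± 0.85, Pfkfb3 by 1.59 and Ankrd37 by 2.16 (limma adjusted p = 0.00632, 0.00732, 0.0147, 0.0449, 0.0323 and 0.0456). Pdk1 stood at 0.82, 0.57 and 0.55 in normal collagen I and at 1.69, 2.20 and 2.23 in tumor collagen I and rose by 1.40 ± 0.37 (limma adjusted p = 0.0417). Hif1a was at -0.43 (limma adjusted p = 0.393).

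The count of 13 rests on few arrays. It was 3 without normal collagen I B or C or tumor collagen I B, 5 without normal collagen I A and 6 without tumor collagen I C. In the 3 cases with 3 calls, Adm, Car12 and Vegfa were the members called. It was 25 without normal Matrigel A and 21 without normal Matrigel D. These arrays are in neither group compared. They enter through the shared variance, the filter and choice of probes, and the number of genes adjusted over (18041 without A and 17884 without D). With slide as a fixed block Adm alone was called, while fitting only the groups compared gave 21.

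**Figure D3:**
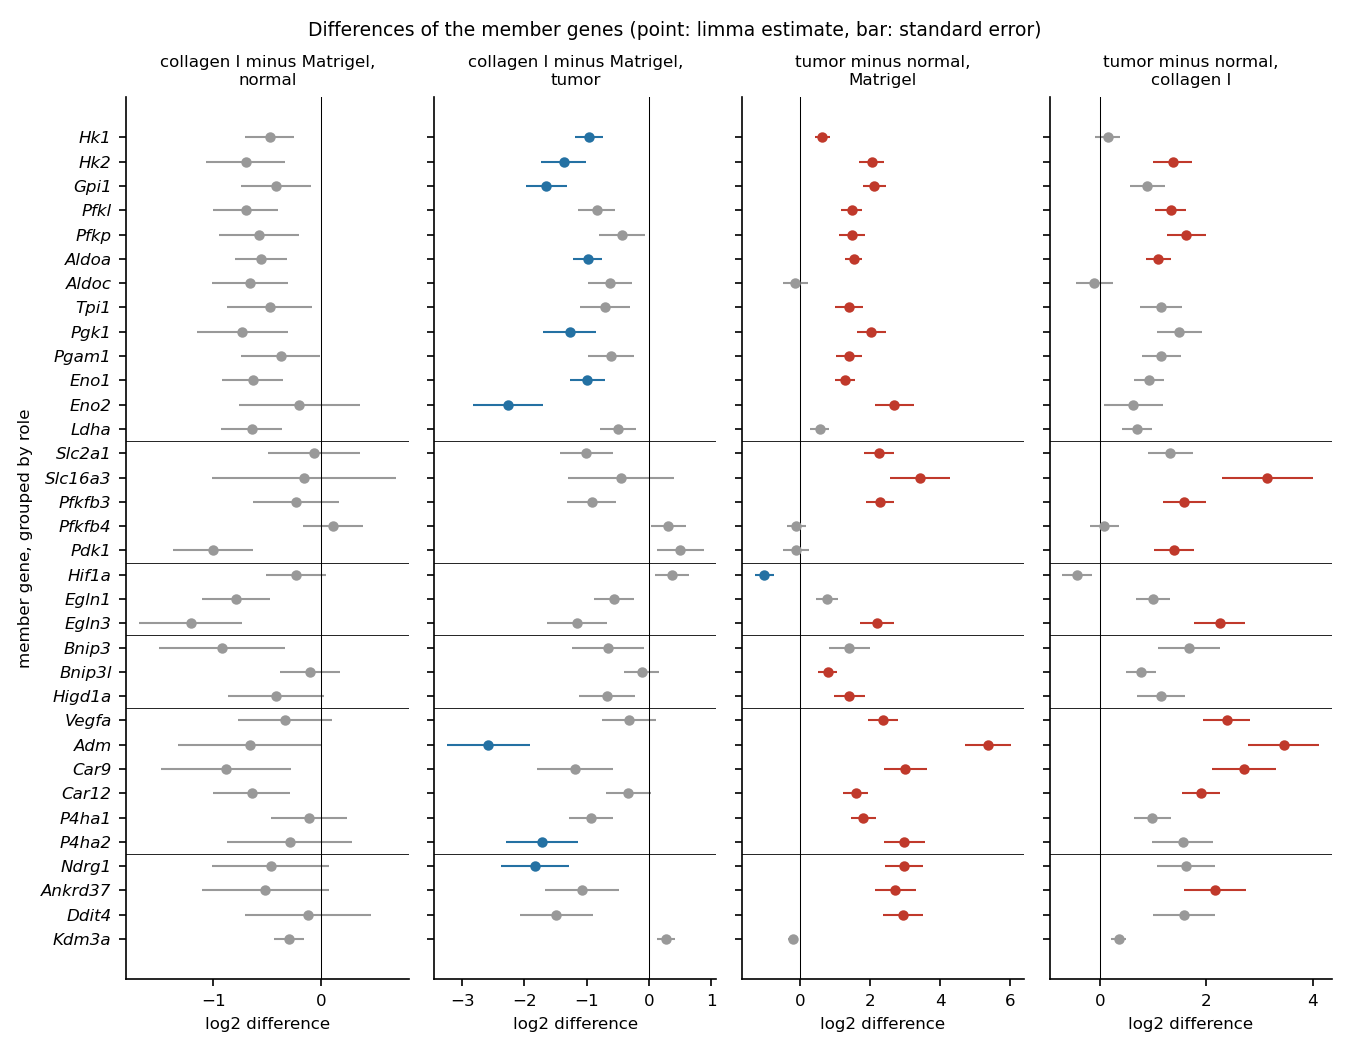
Log2 difference of each of the 34 members for both gel comparisons and both tissue comparisons (x axis), with the standard error of the fit as bars, members grouped by role. Tissue differences lie mostly above 0 and gel differences mostly below 0; spike-in scaling would move all tumor gel differences by 1.69 and all tissue differences in Matrigel by -1.94.

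Between the gels in tumor organoids, 10 of 34 members fell in collagen I and none rose, against 27.5% of all genes called and 12.3% called lower. The median was -0.88 beside -0.06 over all genes, and for 22 members the collagen I arrays all lay below the Matrigel arrays, against 19.0% of all genes. Under spike-in scaling the direction turned, with 17 members called higher and none lower, and a median of 0.81 beside 1.63 over all genes. This scaling shifts every gene alike, so the members' distance from the median gene is the same by construction, and whether they fell in absolute terms depended on the scale. The tissue comparison in Matrigel and this one share the tumor Matrigel arrays.

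Of the 13 enzymes 7 fell, and all 13 were below 0 by the probe used for each gene, with a median of -0.97. Gpi1 stood at 8.12, 8.55 and 8.03 in tumor Matrigel and at 6.26, 6.90 and 6.59 in tumor collagen I. The groups lay more than 1 log2 unit apart, and Gpi1 fell by 1.65 on the log2 scale (limma adjusted p = 0.00609). Eno2 stood at 1.11, 2.31 and 0.75 against -1.70, -1.11 and 0.20 and fell by 2.26 (limma adjusted p = 0.0154). Hk2 fell by 1.37, Pgk1 by 1.28, Eno1 by 0.99, Aldoa by 0.99 and Hk1 by 0.97 (limma adjusted p = 0.0199, 0.0443, 0.026, 0.0135 and 0.0122). With quantile normalization Ldha, Pgam1 and Tpi1 turned to 0.28, 0.12 and 0.02, and in the authors' values to 0.41, 0.25 and 0.18, without a call on any scale.

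Of the 20 other HIF targets 3 fell, with a median of -0.80. Adm stood at 3.16, 4.16 and 3.59 in tumor Matrigel and at -0.11, 1.45 and 1.83 in tumor collagen I and fell by 2.58 (limma adjusted p = 0.0181). Ndrg1 stood at 6.70, 7.57 and 7.13 against 4.48, 5.55 and 5.89, and P4ha2 at 4.64, 4.99 and 4.34 against 1.65, 3.48 and 3.69. Ndrg1 fell by 1.83 and P4ha2 by 1.72 (limma adjusted p = 0.0303 and 0.0481), in both cases with mouse A the lowest in collagen I. Slc16a3 was at -0.45, Vegfa at -0.33, Bnip3l at -0.12, Pdk1 at 0.51 and Hif1a at 0.37, none of them called (limma adjusted p = 0.725, 0.601, 0.786, 0.336 and 0.348).

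Within each tumor mouse the gels differed in the same direction. Collagen I minus Matrigel had a median over the members of -0.96 in mouse A, -0.83 in B and -0.66 in C, with 29, 31 and 29 of 34 below 0. The members lower in all 3 mice were 28 of 34, or 82.4%, against 30.2% of all genes; they include 13 of 13 enzymes and 15 of 20 other HIF targets. With mouse as a fixed block 10 members fell, 9 of them among the 10 above; P4ha2 missed the threshold (limma adjusted p = 0.051) and Slc2a1 passed (limma adjusted p = 0.0455). On the slide that holds 1 array of each tumor group, of different mice, the median was -1.22.

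The number of members lower in collagen I moved with single arrays. It was 2, Gpi1 and Hk1, without tumor Matrigel B, the dimmest array, and 3, Aldoa, Gpi1 and Hk1, without tumor collagen I A. It was 6 without tumor Matrigel C and 17 without normal Matrigel A. With quantile normalization, normexp or the authors' values it was 3, namely Adm, Eno2 and Gpi1. Gpi1 kept its call in each of these by the probe used. Its other probe, at -0.86 on the main scale, did not pass when each probe was tested alone.

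In normal organoids no member passed between the gels, with 0.0397% of all genes called, and 7 members were lower at an unadjusted p under 0.05, against 3.33% of all genes. By the probe used for each gene, the median was -0.47 beside -0.01 over all genes. On that basis 33 of 34 members were below 0 and 13 of 13 enzymes, whose median was -0.58. Of the enzymes with further probes kept, Gpi1 had 1 at 0.27 and Pfkp 1 at 0.26. Those of Aldoa, Aldoc, Eno2, Hk1, Ldha and Pgk1 were all below 0. The other HIF targets had a median of -0.38. Under spike-in scaling 27 members were below 0, with no call. For 9 members the collagen I arrays all lay below the Matrigel arrays, against 10% of all genes.

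That median moved with single normal Matrigel arrays, toward 0 without A and away from it without D, where it was -0.86 with 34 of 34 members below 0. This array was the highest of its group for 31 of 34 members, against 42.2% of all genes, and normal Matrigel D was the lowest for 30. Over B it stood higher for 33 of 34 members, by a median of 0.95, and by more than 1 log2 unit for 15 members, against 3.37% of all genes. Over D its median excess was 1.68. Adm shows the pattern, at -0.09 in A against -2.36 and -2.75, as do Car9, at 0.69 against -1.55 and -2.34, and Bnip3, at 4.05 against 2.34 and 1.04. Hif1a did not, at 1.54 in A against 1.68 and 1.33.

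The batch 1 array of mouse A did not show this. There mouse A minus mouse B had a median of -0.19, with 26 of 34 members below 0 and 0 above 1. Between its arrays, mouse A was higher in batch 2 for 33 of 34 members, by a median of 1.23 beside -0.05 over all genes, whereas mouse B differed by a median of 0.04. Adm stood at -2.30 in mouse A and -2.58 in mouse B in batch 1, and Car9 at -1.97 and -1.66. Normal Matrigel A of batch 2 was also dimmer than B and D, with a 75th percentile of 671 against 1098 for each, and its spike-in probes stood highest of the group, at -1.52. Genes of the integrated stress response did not differ in this way, with a median of A minus B of -0.06. The part of brightness in the members' levels on this array was not tested.

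**Figure D4:**
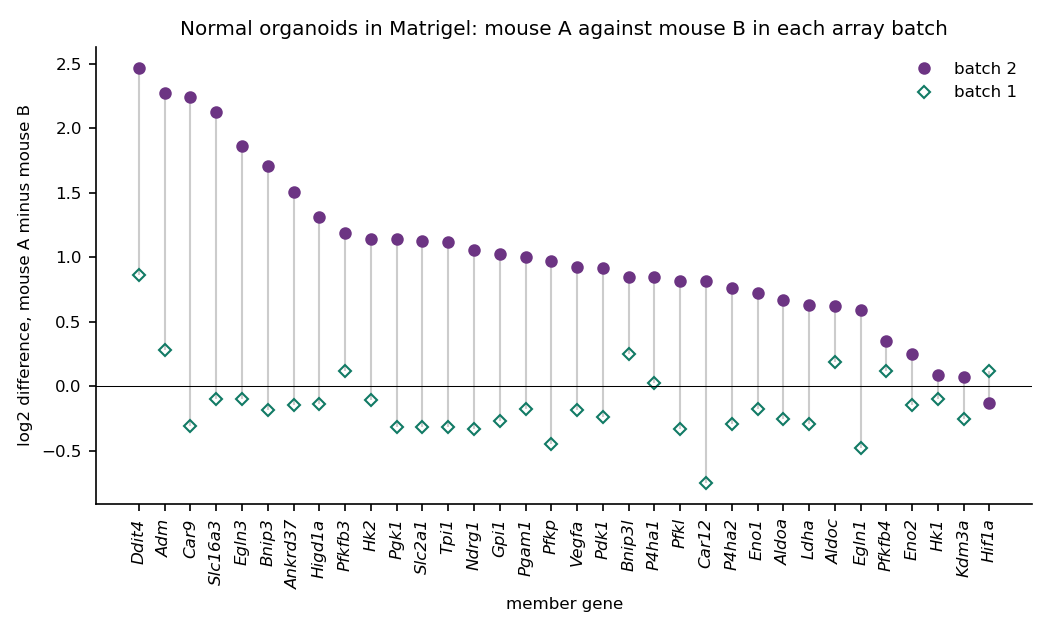
Log2 level of each member in normal Matrigel A minus normal Matrigel B, in batch 2 and in batch 1, with members ordered by the batch 2 difference. In batch 2, 33 of 34 members lie above 0, with a median of 0.95; in batch 1, 26 of 34 lie below 0, with a median of -0.19.

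Without this array the gel median of normal organoids was -0.01, with 16 of 34 members above 0 and no call; for the enzymes it was -0.28, with 10 of 13 below 0. Taking mouse A from batch 1 instead gave -0.05. With mouse as a fixed replicate block the median was -0.82, again with 34 of 34 below 0. In mouse A alone collagen I minus Matrigel was below 0 for 34 of 34 members, with a median of -1.34; against its batch 1 array the median was -0.15. In mouse B the median was -0.32, with 27 below 0. The pairs of different mice on 1 slide gave -0.47 on one slide and 0.21 on another.

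Other comparisons drew more calls without normal Matrigel A. Over the members the median SD was 0.84 in normal Matrigel, against 0.18 in normal collagen I, 0.32 in tumor Matrigel and 0.43 in tumor collagen I; over all genes these were 0.26, 0.18, 0.33 and 0.34. With mouse A from batch 1 the normal Matrigel value was 0.45. Without the array 17 members fell between the gels in tumor organoids and 28 rose between the tissues in Matrigel, where the members' median went from 1.56 to 2.09. These values come from fewer arrays and are not the main result.

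With the probe used for each gene, the gel effect was not shown to differ between tumor and normal organoids for any member. In simulated data, 6 of 100 2-fold and 50 of 100 4-fold changes were recovered for this comparison. The difference of the gel effects had 0 of 34 members called by limma, against 2.78% of all genes called. At an unadjusted p under 0.05, 2 were higher and 2 lower, against 13.6% and 12.4% of all genes. The lowest was Eno2 at -2.06 and the highest Pdk1 at 1.51 (limma adjusted p = 0.137 and 0.112). Pdk1 was at -1.0 between the gels in normal and 0.51 in tumor organoids. The median of the enzymes was -0.36 and that of the other HIF targets -0.27, and neither sign was stable. The enzymes were at 0.25 with quantile normalization and 0.17 in the authors' values, and the other targets at 0.08 and 0.10. The other targets were also at 0.19 with mouse as a fixed replicate block, 0.28 without normal Matrigel D and 0.06 without tumor collagen I A, none of these with a call. Without normal Matrigel A, 3 members passed: Adm at -2.74, Ddit4 at -2.12 and Gpi1 at -1.63 (limma adjusted p = 0.0388, 0.0444 and 0.0232). With mouse A from batch 1, Adm and Gpi1 passed. Under spike-in scaling, which adds 1.48 to every such difference, 14 members were called, all higher.

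Probes of 1 gene did not always say the same. The 34 members had 60 probes, 18 members having several, and the probe with the highest mean was used. For Vegfa between the gels in tumor organoids the probe used, at mm7 chr17:44146842-44146901, was at -0.33, while those at chr17:44147967-44148026 and chr17:44154831-44154890 were at -1.96 and -1.59. Of the 3, the one at -1.96 passed when each probe was tested alone (limma adjusted p = 0.0123 over 26606 probes; 0.116 and 0.597 for the others). Between the tissues in Matrigel all 3 passed, at 2.37, 4.10 and 3.82. The deposited files give these positions; no gene annotation of that build was used here.

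Pfkfb3 behaved alike, with -0.92 for the probe used and -1.35 and -1.51 for the other probes between the gels in tumor organoids, and 2.28, 4.35 and 3.33 between the tissues in Matrigel. For Pfkp a further probe was at 1.44 between the gels in tumor organoids and passed as higher when tested alone, where the probe used was at -0.43. That further probe was at 0.17 between the tissues in Matrigel, where the probe used was at 1.48. Higd1a had a second probe at -0.84 between the tissues in Matrigel, against 1.41 for the probe used. The other Kdm3a probes were at 1.05 and 0.83 between the gels in tumor organoids, both passing when tested alone (limma adjusted p = 0.0424 and 0.00337), against 0.28 for the probe used. The probe at 0.83 also passed for the difference of the gel effects, at 1.28 (limma adjusted p = 0.0221 over 26606 probes). Which transcripts each probe reads was not tested. A pair of probes listed as MGC68323 and LOC380687 carry Gapdh's accession; the first stood at 6.40 ± 0.94 in normal Matrigel, 6.01 ± 0.16 in normal collagen I, 8.37 ± 0.41 in tumor Matrigel and 7.11 ± 0.15 in tumor collagen I (SD, n = 3).

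**Figure D5:**
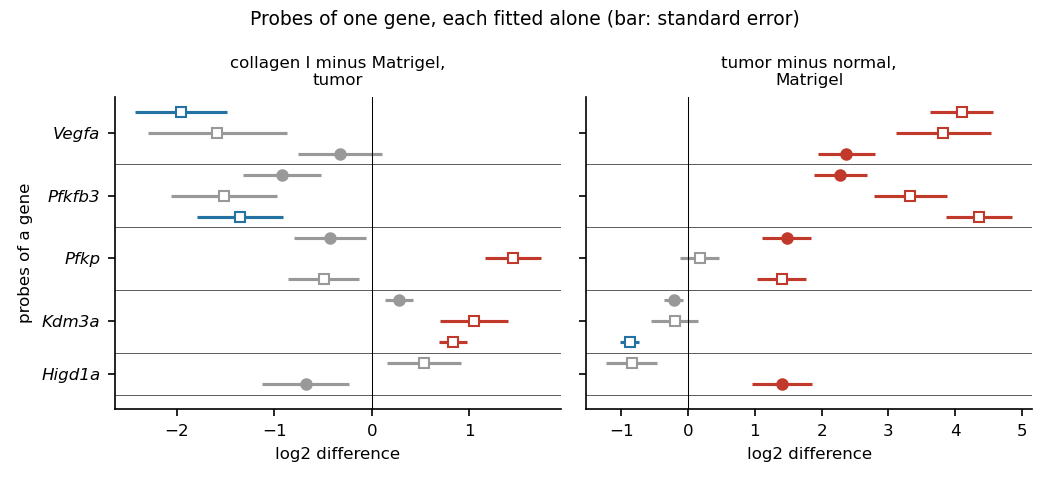
Log2 difference of each probe of Vegfa, Pfkfb3, Pfkp, Kdm3a and Higd1a, for the tumor gel comparison and the Matrigel tissue comparison. These are not all of the 18 members with several probes. Filled points are the probe used for the gene and open squares its other probes. Red or blue marks an adjusted p under 0.05 (higher or lower). Probes of Vegfa and Pfkfb3 differ in size and those of Pfkp and Higd1a in direction; scaling to spike-in probes would shift all points of the gel comparison by 1.69 and of the tissue comparison by -1.94.

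The other genes of the pathway are read against the share of all genes called, 51.5% for the tissues in Matrigel, 8.89% for the tissues in collagen I and 27.5% for the gels in tumor organoids. Of 30 further HIF targets, 15 rose and 6 fell between the tissues in Matrigel, with a median of 0.60. Ero1a, an oxidase of protein folding, rose by 4.54 and the repressor Bhlhe40 by 2.70, whereas Igfbp3, a binding protein of insulin-like growth factors, fell by 4.81. Lox, the collagen cross-linking oxidase, was not well above background in tumor Matrigel and was at least 3.63-fold lower there. Between the gels in tumor organoids 4 rose and 11 fell, with a median of -0.48; Ero1a fell by 2.82 (limma adjusted p = 0.00261), Bhlhe40 fell by 1.63 and Igfbp3 rose by 2.22. In collagen I tumor organoids had 6 higher and 3 lower than normal ones.

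Of the HIF machinery beyond the members, 4 of 15 genes rose and 2 fell between the tissues in Matrigel, with a median of 0.26; this was a smaller share than over all genes. Siah2, a ubiquitin ligase that acts on the Egln hydroxylases, rose by 1.5, and the elongin C gene Eloc, a partner of VHL, fell by 1.22. Arnt2, a partner of HIF alpha subunits, was not well above background in normal Matrigel and was at least 1.94-fold higher in tumor Matrigel, where 2 of 3 arrays measured it. Of 24 further genes of glycolysis and pyruvate use 7 rose and 3 fell in Matrigel, with a median of 0.34 and again a share below that of all genes. The pyruvate kinase gene Pkm rose by 1.52, and Fbp1, a gluconeogenesis enzyme that opposes the phosphofructokinase step, fell by 2.73. Between the gels in tumor organoids Fbp1 rose by 1.81, 2 of the 24 rose in all and 3 fell; between the tissues in collagen I none of the 24 was called.

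The integrated stress response, a response to amino acid shortage and folding stress that shares Ddit4 as a target, was measured beside the members. Of 12 genes 12 rose between the tissues in Matrigel, with a median of 1.91, and 11 fell between the gels in tumor organoids, with a median of -1.25, turned to above 0 by the shift of 1.69 under spike-in scaling. Between the tissues in collagen I 1 of 12 rose, with a median of 0.28, whereas the members' median was 1.32. For the difference of the gel effects 6 of the 12 fell and none rose, where the members had 0 of 34. With mouse as a fixed replicate block no gene on the array was called for this difference. That fit left 3 residual degrees of freedom, against 8 in the main fit. The part of the stress response in the members' results was not tested.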

How the data were processed

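RNA was amplified, labelled with Cy3 and hybridised to 1-colour Agilent arrays, per the labels' protocols; 14 arrays cover 13 samples, and the 12 of batch 2 were compared. Mice are separate animals. The deposited intensity is Agilent's processed signal, detrended and background-corrected by Feature Extraction, whose version is given as 9.1 in the submitters' processing notes and as a later one in the file headers. The authors' deposited log2 values served as an alternative, and how they were centred is not stated in these sources. Their largest value was the same on all 12 arrays (18.975) and their medians ran from 5.91 to 5.98, as after quantile normalization. The authors' values and the quantile setting are therefore not separate checks. From log2 intensities the array's 75th percentile was subtracted, control and outlier-flagged spots left out and spots averaged, giving 41174 probes. A probe was kept if all arrays of 1 or more groups had it well above background and each group had 2 values or more (26606 probes), and each gene took its probe with the highest mean. Names came from RefSeq by accession for 55.7% of probes, by symbol for 16.2% and by synonym for 7.5%, otherwise from the file.

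The model, 1 term for each group, was fitted in limma 3.58.1 under R 4.3.3 (8 residual and 2.73 prior degrees of freedom), with Benjamini-Hochberg adjustment over 17642 genes, at a threshold of 0.05. The members and gene lists were chosen with earlier results of these data known. Genes named are the members and, of each further list, the called genes with the largest differences per direction; 1 such gene is not reported here. A gene not well above background in a whole group is given as "at least N-fold": the bright group's mean was set against a floor averaged over the dim group's arrays, the floor being the gene's own value or the dimmest signal called well above background there, whichever was larger. A test on simulated data changed 100 of 17642 genes 4-fold and a further 100 2-fold. Of those changed 4-fold, 67 were recovered for the tumor gel comparison, 80 for the Matrigel tissues and 50 for the difference of gel effects. Of those changed 2-fold, 31, 32 and 6 were recovered. Fewer genes changed in the simulation than were called in the data for these comparisons, and the adjusted threshold depends on that number.

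Letters pair gels within a tissue, since the labels name the same mouse. Deviations of same-mouse arrays correlated across genes at 0.23 and -0.25 in normal mice A and B and at -0.06, 0.33 and 0.42 in tumor mice A, B and C. The number of arrays limits the precision. Alternatives covered the scaling, background correction, filter, probes, batch, mouse and slide blocks, variance model and leaving out each array; spike-in scaling and single probes were added after seeing the data. Figures used matplotlib 3.10.9.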

Additional observations from a re-analysis of the deposited data

Results flagged for a closer look

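In the main fit the gel effect differed between tumor and normal organoids for 6 of 12 genes of the integrated stress response list. The test was of the difference itself. That list was measured beside the members, and the 3 genes with the largest differences are given. With mouse as a fixed replicate block no gene was called for this difference, these 6 included. That fit left 3 residual degrees of freedom, against 8 in the main fit, and of the normal mice only A and B gave both gels. It therefore had little power to call a difference. Of all 17642 genes, 491 were called in the main fit, 20 with normexp and 0 with that block. Other settings gave more calls, 1666 with a random replicate block, 1056 with slide as a fixed block and 2399 with mouse A from batch 1. Leaving out 1 array gave 33 to 1940. Ddit3 (CHOP), a transcription factor of that response, had a difference of the gel effects of -3.05 (limma adjusted p = 0.00825), from -0.18 in normal and -3.23 in tumor organoids. Trib3, a pseudokinase induced by it, had -2.62 (limma adjusted p = 0.00487), from 0.03 and -2.59. Chac1, a glutathione-degrading enzyme, had -2.42 (limma adjusted p = 0.0313), from 0.30 and -2.12. Scaling to spike-in probes adds 1.48 to each of these differences: Ddit3 was then at -1.57 and Trib3 at -1.14 (limma adjusted p = 0.0189 and 0.0357), and Chac1 at -0.94 without a call (limma adjusted p = 0.159).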

How the results depend on the processing

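Member counts are given as calls among 34. Of 4488 single values under the alternatives other than spike-in scaling, 4173 kept their side of the threshold, 192 of them with the sign turned and no call on either side, while 191 lost and 122 gained a call, and 2 with a call turned: Hk1 between the tissues in Matrigel was at -0.079 with quantile normalization and -0.012 in the authors' values. Between the gels in normal organoids 0 members were called in every alternative. Between the gels in tumor organoids (10 calls) there were 3 with quantile normalization, with normexp and in the authors' values, 17 with mouse A from batch 1, 16 with the mean of both batches, and 17, all higher, with spike-in scaling. Between the tissues in Matrigel (27 calls) spike-in scaling gave 10, of which 9 were lower. Between the tissues in collagen I (13 calls) there were 8 without a filter on dim probes, 24 with mouse A from batch 1, 21 with the mean of both batches, 1 with slide as a fixed block, 21 with only the groups compared and 6 with spike-in scaling. For the difference of the gel effects (0 calls by limma; 4 at an unadjusted p under 0.05) there were 2, 1, 3 and 14 with mouse A from batch 1, the mean of both batches, slide as a fixed block and spike-in scaling. Leaving out 1 array gave 2 to 17, 23 to 29, 3 to 25 and 0 to 3 calls in these 4 comparisons. With mouse as a fixed replicate block there were 10 calls between the gels in tumor organoids and 0 for the difference, and with a random replicate block 12, 27, 14 and 0. A fixed mouse block was not run between tissues, whose mice differ. With normexp the median over all genes moved to -0.32 for the tumor gel comparison and 0.43 for the Matrigel tissue comparison; of all genes 486 were then higher and 753 lower, and 6786 higher and 2068 lower, against 2686 and 2165, and 4614 and 4473. The causes were not tested. Dim probes in tumor Matrigel, where 56.6 to 58.6% of spots were well above background, limit small differences there.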
